A study of Mus musculus with 6 samples.

Results

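The genes described here encode the machinery of membrane traffic: the Rab and Arf GTPases, the COPI and COPII vesicle coats, the channel and peptidase through which proteins enter the endoplasmic reticulum, the SNARE proteins and the Vps proteins. Members were chosen by the annotated symbol of each probe set, and the rule itself uses no measured value. The rule, the further gene lists and the motifs were set with earlier results of these data known. A symbol was taken where it begins with Rab, Arf, Sec, Stx, Snap or Vps followed by a digit, with Vamp, or with Cop followed by a, b, e, g or z, and Arcn1 and Rabggtb were added by name. This gave 152 probe sets of 114 genes among the 12422 probe sets of the array, and 33 of the genes had more than 1 probe set. Arcn1 and Rabggtb had already stood out in an earlier look at these arrays, so their inclusion is not independent of their values.

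RNA came from mIMCD3 cells, an epithelial line derived from the inner medullary collecting duct of the mouse kidney, and was hybridised to 6 single-colour oligonucleotide arrays. Aldosterone was given for 1 h to the cells of 3 arrays, and vehicle for the same time to those of the other 3. Each of 3 replications of the experiment gave 1 aldosterone and 1 vehicle array. For the hormone dose, and for whether the replications used separate cultures, details were not given in the sources used here. The p-values therefore measure only the spread between these arrays, which may be technical. The aldosterone array of replication 3 was deposited on another scale, with a trimmed mean intensity of 86.5 against 2488 to 2493 on the other 5 arrays. It was brought to the common trimmed mean of 2090 by a factor of 24.2, and its dim values are therefore coarser. Of 13 collecting duct markers on the array, the epithelial genes Krt7, Krt8, Krt18, Krt19, Cdh1, Epcam, Cldn4 and Cldn7 were bright enough to be tested. The water channel genes Aqp2 and Aqp4, the vasopressin receptor gene Avpr2, Hsd11b2 and Cldn8 were not. The summed intensity of the 13 markers was 50593 to 74885 on the aldosterone arrays and 54956 to 78746 on the vehicle arrays, and the sum of 7 fibroblast markers was 6307 to 8029 on the aldosterone and 6347 to 10361 on the vehicle arrays. The sum of the endothelial markers was 1327 to 2126 on the aldosterone and 1775 to 2279 on the vehicle arrays. That of the leukocyte markers was 5306 to 6744 on the aldosterone and 5632 to 8261 on the vehicle arrays. Of the leukocyte markers, Cd14, at 4211 to 6998 over the 6 arrays, and Cd68 were bright enough to be tested. Ptprc, Cd3e and Itgam were not. The fibroblast genes Col1a1, Col1a2 and Pdgfra and the endothelial gene Eng were also bright enough. Other probe sets of Cd68 and of these fibroblast genes were too dim. The sum of the proximal tubule markers was 1721 to 2613 on the aldosterone and 2136 to 2599 on the vehicle arrays. The part of these markers in the results below was not tested.

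Membrane traffic moves cargo in vesicles that bud with the help of a protein coat, are directed to their target by GTPases and fuse through SNAREs. Arf GTPases recruit coats, Rab GTPases mark the identity of each membrane and recruit tethers and motors, and matching SNAREs on vesicle and target pull the membranes together. In the collecting duct this machinery carries the water channel aquaporin 2 and the epithelial sodium channel between intracellular vesicles and the apical membrane. It is best known there for the insertion of aquaporin 2 into that membrane after vasopressin.

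The starts of these genes were read from RefSeq's promoter table of build GRCm38.p6, which holds the 250 bases before and the 50 bases after a start. It had an entry for 96 of the 114 genes. The letters TGACG, the core of the cAMP response element, stood on either strand in 51 of the 96 windows (53.1%), against 33.6% of the 4589 tested genes with a window and 20.9% of all 27025 windows. Rab GTPase genes held them in 20 of 30 windows and COPII genes in 5 of 8, and SNARE genes in 6 of 17. The other motifs searched were nearer to the tested genes: CCACG, from the endoplasmic reticulum stress element, in 55.2% against 48.9%, the E box CACGTG in 13.5% against 10.9%, the CCAAT box in 37.5% against 39%, and AGAACA, a part of the glucocorticoid response element, in 13.5% against 11.4%. The windows had a median GC content of 63% for the members, 61.3% for the tested genes and 52.7% for all windows. The part of base composition in the motif shares was not tested. The endoplasmic reticulum stress letters can overlap the E box and the reverse of the cAMP response letters, and a match is a description with no test.

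Windows are shown for 3 genes that the results below turn on: Rabggtb and Copb2, which were among the members with the smallest p for aldosterone, and Rab10, which had the smallest p between replications. Capitals mark every match to the 5 motifs on either strand, and each run reads 5′ to 3′ on the gene's strand.
Rabggtb, chr3:153912917-153913216, minus strand: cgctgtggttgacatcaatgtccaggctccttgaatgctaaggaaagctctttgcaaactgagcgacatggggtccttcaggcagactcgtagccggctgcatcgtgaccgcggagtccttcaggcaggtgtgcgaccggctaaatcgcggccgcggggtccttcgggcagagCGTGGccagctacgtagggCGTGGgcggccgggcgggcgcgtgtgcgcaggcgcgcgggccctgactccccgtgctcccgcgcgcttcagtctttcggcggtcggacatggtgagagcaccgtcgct
Copb2, chr9:98563481-98563780, plus strand: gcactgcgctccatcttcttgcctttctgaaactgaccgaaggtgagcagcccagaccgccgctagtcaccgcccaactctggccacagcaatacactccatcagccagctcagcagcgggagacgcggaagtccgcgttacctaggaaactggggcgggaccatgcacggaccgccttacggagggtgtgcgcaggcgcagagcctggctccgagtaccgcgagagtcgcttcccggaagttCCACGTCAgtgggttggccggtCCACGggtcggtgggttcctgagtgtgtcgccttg
Rab10, chr12:3309920-3310219, minus strand: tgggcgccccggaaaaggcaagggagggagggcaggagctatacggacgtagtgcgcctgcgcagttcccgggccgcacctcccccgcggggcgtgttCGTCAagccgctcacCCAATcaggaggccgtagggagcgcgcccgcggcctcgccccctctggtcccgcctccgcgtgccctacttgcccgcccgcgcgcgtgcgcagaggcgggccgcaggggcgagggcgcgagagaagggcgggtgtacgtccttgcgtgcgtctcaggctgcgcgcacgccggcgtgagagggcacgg
Rabggtb held CCACG on the opposite strand at positions -77 and -58 from the start. In Copb2, CCACG at -7 and the reverse of TGACG at -4 overlapped, and the last letter of the latter fell on the start. A further CCACG lay after the start. Rab10 held the reverse of TGACG at -152 and the CCAAT box at -137.

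A probe set was tested where its mean log2(intensity + 53) was at least 8.87, the 40th percentile of all probe sets. This kept 126 of the 152 trafficking probe sets (82.9%), from 102 genes, where the limit by its construction kept 60% of all probe sets. The members nearest to the limit were Rab26os at 8.89 inside it and Rab23 at 8.83 outside it. The 12 genes with no tested probe set were the GTPases Rab3b, Rab17, Rab23, Rab33a and Rab35, the SNAREs Snap25 and Vamp1, the COPII gene Sec24b, the Vps genes Vps13c and Vps37a, and Snap91 and Sec1. Snap91 encodes a clathrin assembly protein and Sec1 a fucosyltransferase, so both match the rule by their letters alone. Snap25, a SNARE known from neurons and endocrine cells, had intensities of 380, 54.1 and 36.3 on the aldosterone arrays of replications 1, 2 and 3, and of 33.3, 97.7 and 25 on the vehicle arrays. It was dim on 5 of the 6 arrays, and the aldosterone array of replication 1 stood apart.

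After 1 h of aldosterone, no trafficking transcript differed from vehicle past the adjusted threshold. In limma's fit over all 7453 tested probe sets, 0 of the 126 members had an adjusted p under 0.05, and 0% of all tested probe sets did. An unadjusted p under 0.05 was reached by 1 member on the higher side, Copb2 (0.794% of the members, against 0.617% of all tested probe sets). It was reached by 3 on the lower side, Arcn1, Rabggtb and Sec62 (2.38%, against 0.349%). Without Arcn1 and Rabggtb, 1 of 123 members (0.813%) was left on the lower side. With the replication as a block in the fit, 0 members passed the adjusted threshold and 5 had an unadjusted p under 0.05 (3.97%, against 3.35%): these 4 and Rab3a. Without Arcn1 and Rabggtb the blocked fit gave 3 of 123 (2.44%). In the fit on treatment alone, without the aldosterone array of replication 1, there were 0 members at an unadjusted p under 0.05, against 0.429% of all tested probe sets higher and 0.55% lower. Without the vehicle array of replication 3 there were 5 members higher (3.97%, against 1.22%) and 2 lower (1.59%, against 0.631%). Without the aldosterone array of replication 3, the one on another scale, there were 2 higher (1.59%, against 0.939%) and 3 lower (2.38%, against 0.51%). In RNA of whole cultures, a smaller share of cells holding a transcript and less of it per cell cannot be told apart.

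The differences were small as a whole. By sign, 69 tested members were higher and 57 lower, under the trimmed-mean scaling and under quantile normalization alike. Of all tested probe sets, 3721 were higher and 3732 lower under the trimmed-mean scaling. This near-even split is the one to set beside the counts by sign of each role below, which were not tested. The median log2 difference, aldosterone minus vehicle, was 0.01 over the members and -0.0003 over all tested probe sets. From the 5th to the 95th percentile the difference ran from -0.30 to 0.34 for the members and from -0.33 to 0.34 for all tested probe sets. Rab3a, Stx1a and Rab20, 3 tested members (2.38%), differed by more than 1.5-fold, against 2.32% of all tested probe sets. The 95% interval of the difference was taken from the fit on treatment alone. It lay inside a 2-fold change for 112 of the 126 members (88.9%), against 87.1% of all tested probe sets. For 72 (57.1%), against 49.4%, it lay inside a 1.5-fold change. The difference was above 0 in all 3 replications for 11 members (8.73%, against 10.5% of all tested probe sets) and below 0 in all 3 for 15 (11.9%, against 11.5%). Without the probe sets of Arcn1 and Rabggtb, 12 of 123 (9.76%) were below 0 in all 3.

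**Figure D1:**
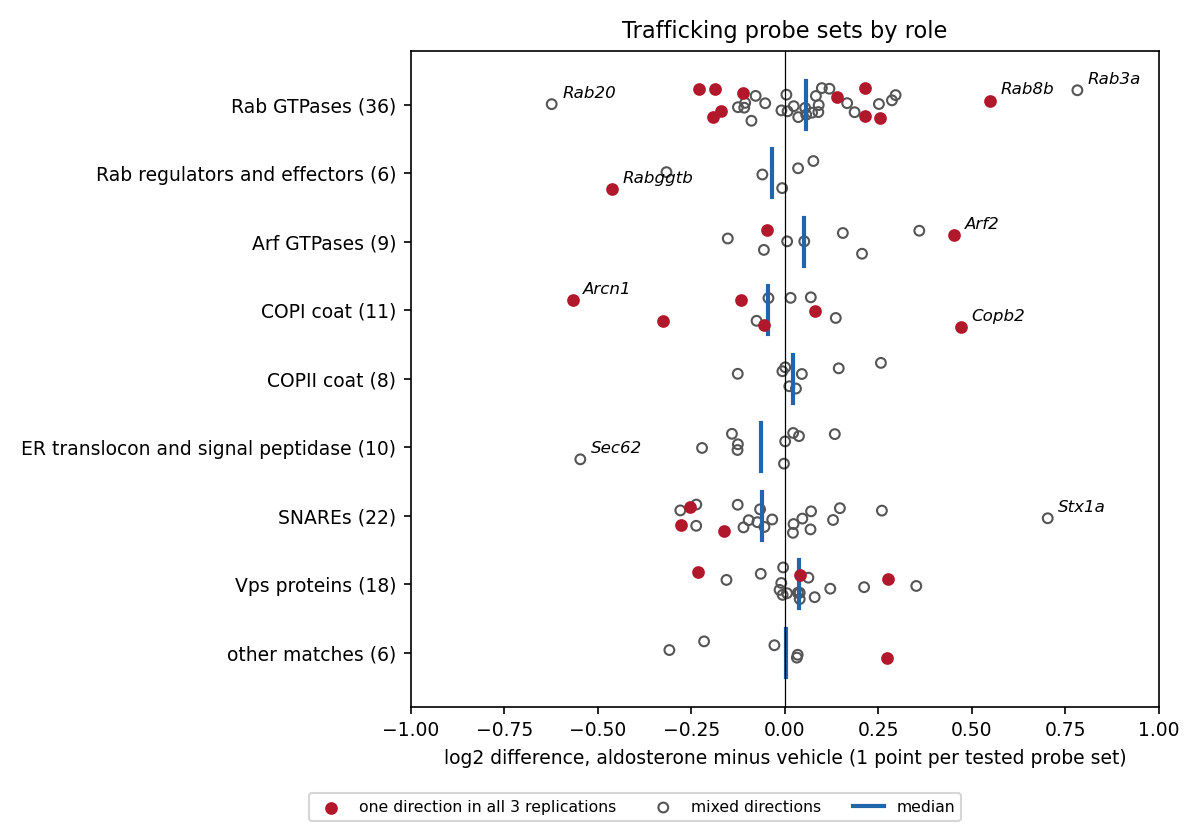
Log2 difference in intensity, aldosterone minus vehicle, of each of the 126 tested trafficking probe sets (x axis), in rows by role. Filled points went one way in all 3 replications and the line in each row is the role's median. The points lie on both sides of 0 in every row, from -0.62 for Rab20 to 0.78 for Rab3a, and none passed the adjusted threshold.

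The COPI coat, which carries vesicles from the Golgi back to the endoplasmic reticulum and between Golgi cisternae, held members with a small unadjusted p in both directions. Of its 11 tested probe sets, from 8 genes, 5 were higher and 6 lower by sign, and their median log2 difference was -0.04. The member with a small p on the lower side was Arcn1, and both its tested probe sets are among these 6. Arcn1 was added by name after it had stood out in these arrays, so the lower side is not independent of its values. Arcn1, which encodes the delta subunit of the coat, had intensities of 2548, 3705 and 2937 on the aldosterone arrays of replications 1, 2 and 3 in its first probe set, and of 3863, 5784 and 4104 on the vehicle arrays. Every replication was lower with aldosterone, and all 3 aldosterone arrays were below all 3 vehicle arrays. The mean was 3063 ± 588 with aldosterone and 4584 ± 1047 with vehicle (SD, n = 3 each), and the difference on the log2 scale was -0.57 (standard error, SE, 0.205), or 0.675-fold. By limma the adjusted p was 0.9995 on treatment alone and 0.445 with the replicate block, the smallest of any member in the blocked fit. The second probe set of Arcn1 had 543, 361 and 413 on the aldosterone arrays and 633, 519 and 525 on the vehicle arrays, a difference of -0.33 (log2, SE 0.291). It too was lower in every replication, but its groups overlapped. The third probe set was too dim to be tested.

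Copb2, the beta-prime subunit of the same coat, read in the other direction. Its first probe set had 12617, 15091 and 10233 on the aldosterone arrays and 7123, 10566 and 9684 on the vehicle arrays. It was higher in every replication, by log2 differences of 0.82, 0.51 and 0.08, and the groups overlapped. The mean was 12647 ± 2429 with aldosterone and 9124 ± 1788 with vehicle (SD, n = 3 each), a difference of 0.47 (log2, SE 0.19), or 1.39-fold. By limma the adjusted p was 0.9995, and 0.998 with the replicate block. With the block and without replication 3, an alternative added after seeing the data, the log2 difference was 0.67 and the adjusted p 0.025. This was the only call of a member in any of the fits run, among 9 calls over all probe sets. The other Copb2 probe set had 1395, 1408 and 2120 on the aldosterone arrays, 1971, 1218 and 1905 on the vehicle arrays and a difference of -0.04 (log2, SE 0.249), so the gene's probe sets did not share the difference.

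The other tested probe sets of the coat lay nearer to 0. Copa, the alpha subunit, had 17371, 18628 and 19981 on the aldosterone arrays and 16183, 16992 and 20344 on the vehicle arrays, a log2 difference of 0.07 with a 95% interval of -0.22 to 0.36. Copg1, the gamma subunit, had log2 differences of 0.02 (interval -0.33 to 0.36) and -0.12 (interval -0.42 to 0.19) on its probe sets. For the second of these, all 3 aldosterone arrays were below the vehicle arrays, with 4438, 4406 and 3989 against 4659, 4771 and 4481. Copb1, Cope, Copz1 and Copz2, further subunits of the coat, had log2 differences of -0.08, -0.06, 0.14 and 0.08 on their tested probe sets. All of these had intervals inside a 2-fold change. A second Copz1 probe set, too dim to be tested, had 353, 185 and 334 on the aldosterone arrays. On the vehicle arrays it had 53.6, 172 and 52.7, a log2 difference of 1.29 without overlap of the groups.

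Rabggtb was the regulator with the smallest p. It encodes the beta subunit of the Rab geranylgeranyl transferase, the enzyme that attaches lipid anchors to Rab proteins. It had 2704, 3200 and 3259 on the aldosterone arrays and 3891, 4915 and 3912 on the vehicle arrays. All aldosterone arrays were below all vehicle arrays, and the differences within replications were -0.52, -0.61 and -0.26. The mean was 3054 ± 305 with aldosterone and 4239 ± 585 with vehicle (SD, n = 3 each), a difference of -0.46 (log2, SE 0.162), or 0.726-fold (limma's adjusted p = 0.9995, and 0.998 with the replicate block). The gene of the alpha subunit, Rabggta, is no member of the set. It had 759, 1798 and 914 on the aldosterone arrays and 1906, 1480 and 1385 on the vehicle arrays, lower in 2 replications and higher in 1, with a difference of -0.52 (log2, SE 0.307). Of the 6 tested probe sets of Rab regulators and effectors, 2 were higher and 4 lower by sign. Rabggtb, added by name after it had stood out in these arrays, is among the 4. Rab3ip, an exchange factor for Rab8, gave both signs, with -0.32 (-0.98 to 0.35) in 1 probe set and 0.08 (-0.26 to 0.41) in the other. The second of these had 6758, 7647 and 8937 on the aldosterone arrays and 7305, 6745 and 7991 on the vehicle arrays.

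**Figure D2:**
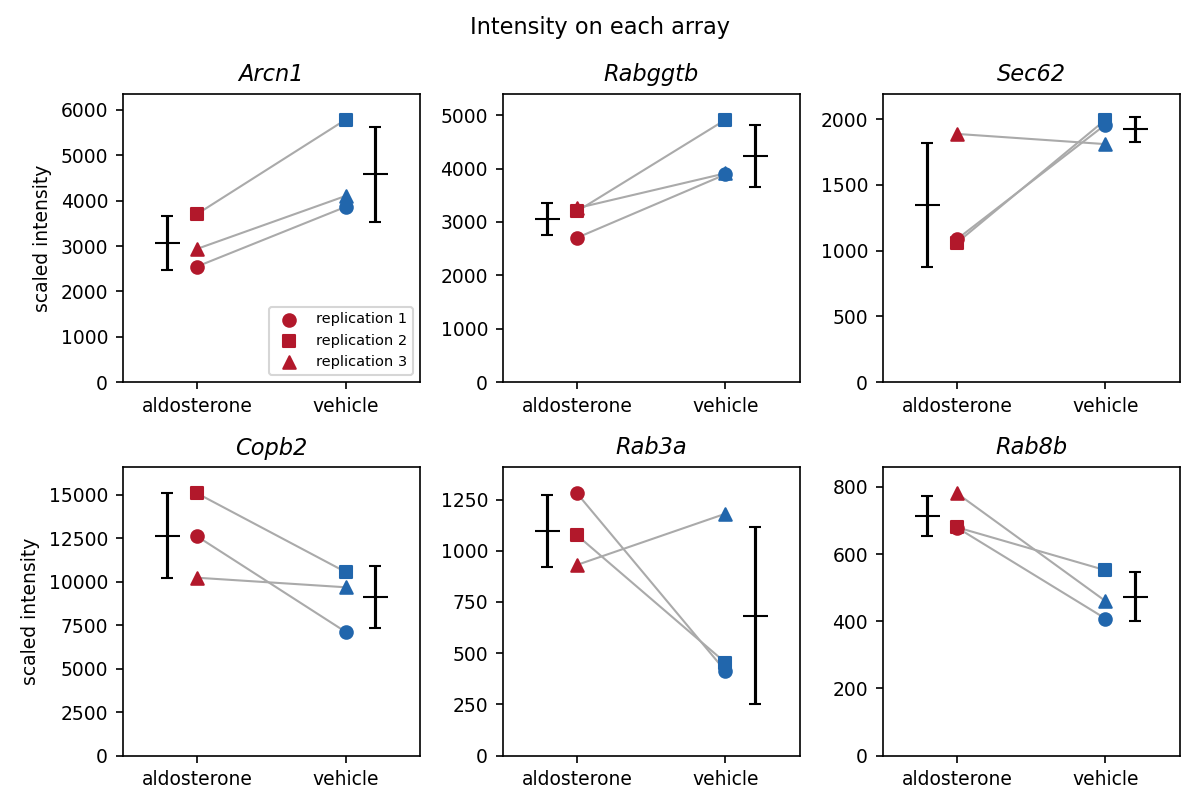
Scaled intensity (y axes, linear, from 0) on each array for 6 trafficking probe sets, aldosterone left and vehicle right, with lines joining the arrays of a replication and bars for the mean ± SD (n = 3 each). Arcn1 and Rabggtb were lower with aldosterone in every replication, Copb2 and Rab8b higher in every replication, and in Sec62 and Rab3a replication 3 went against the other two.

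The Rab GTPases were the largest group, with 36 tested probe sets of 28 genes. By sign 23 were higher and 13 lower, the median difference was 0.06 (log2), and 0 passed the adjusted or the unadjusted threshold in the fit on treatment alone. Rab3a, which works in regulated exocytosis, had 1281, 1076 and 931 on the aldosterone arrays and 413, 454 and 1181 on the vehicle arrays. Its aldosterone arrays were above the vehicle arrays in replications 1 and 2 and below in replication 3. The log2 difference was 0.78 (SE 0.371), with a 95% interval of -0.05 to 1.62, and by limma its unadjusted p was 0.063, or 0.0484 with the replicate block (adjusted p = 0.998). A second Rab3a probe set, too dim to be tested, read the other way in every replication and without overlap, with 47.5, 45.7 and 31.4 on the aldosterone arrays and 161, 101 and 49.5 on the vehicle arrays.

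Rab8b and Rab21 went one way in every replication. Rab8b, a GTPase of transport to the cell surface, had 679, 680 and 781 on the aldosterone arrays and 408, 552 and 460 on the vehicle arrays. The groups did not overlap. Its mean was 713 ± 58.7 with aldosterone and 473 ± 72.9 with vehicle (SD, n = 3 each), a difference of 0.55 (log2, SE 0.261, limma's adjusted p = 0.9995). Rab21, an early endosomal GTPase, had 2144, 2226 and 2190 on the aldosterone arrays and 1999, 1905 and 1741 on the vehicle arrays, also without overlap, and a difference of 0.21 (log2, SE 0.157). Rab20, an endosomal GTPase, had the lowest difference of all tested members, -0.62 with a 95% interval of -1.42 to 0.18. It had 510, 577 and 498 on the aldosterone arrays and 1216, 456 and 1053 on the vehicle arrays, so that it was lower in 2 replications and higher in replication 2.

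Rabs of the main endocytic and secretory routes had intervals of unequal width around 0. Like all intervals in this report, they came from the fit on treatment alone. That fit does not pair the arrays of a replication, so the spread between replications is part of their width. For the Rab10 probe set at -0.17 the SE was 0.324, or 0.103 with the replicate block, and for Rab1a 0.253, or 0.106. Rab5a, Rab5b and Rab5c, of early endosomes, had log2 differences of 0.04 (95% interval -0.28 to 0.35), 0.25 (-0.62 to 1.13) and -0.09 (-0.39 to 0.21). Rab1a, which acts between the endoplasmic reticulum and the Golgi, had 0.14 (-0.43 to 0.71). The probe sets of Rab10, of transport to the cell surface, had -0.17 (-0.90 to 0.56) and 0.30 (-0.41 to 1.01). Rab8a had -0.01 (-0.32 to 0.31). Rab18, a GTPase of lipid droplets and the endoplasmic reticulum, had 13771, 11993 and 16359 on the aldosterone arrays and 14714, 12298 and 14707 on the vehicle arrays, a log2 difference of 0.01 (-0.33 to 0.34). For Rab7, of late endosomes, the probe sets gave 0.21 (-0.16 to 0.59) and -0.13 (-0.54 to 0.29), opposite in sign. Rab2a, on the same route as Rab1a, had 3882, 3496 and 4953 on the aldosterone arrays, 4304, 3590 and 5510 on the vehicle arrays and a difference of -0.11 (-0.56 to 0.34).

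Among the 9 tested probe sets of Arf GTPases, 6 were higher and 3 lower by sign. Arf1, the GTPase that recruits the COPI coat, had 50574, 50762 and 51072 on the aldosterone arrays and 53405, 52711 and 51498 on the vehicle arrays. All aldosterone arrays were below the vehicle arrays, yet the log2 difference was only -0.05, with a 95% interval of -0.26 to 0.16. Arf2 had 600, 442 and 745 on the aldosterone arrays and 410, 433 and 394 on the vehicle arrays, above without overlap, and a log2 difference of 0.45 with an interval of -0.22 to 1.12. Arf3 had 0.21, -0.06 and 0.36 on its 3 probe sets, and Arf4 and Arf5 had 0.01 and 0.05. Arf6, of the plasma membrane and endosomes, had -0.15 and 0.16 on its 2 probe sets.

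The COPII coat, which buds vesicles from the endoplasmic reticulum, had 8 tested probe sets, 6 higher and 2 lower by sign, and 0 that went one way in all 3 replications. Sec16a, which organises the exit sites, had 8701, 9441 and 5169 on the aldosterone arrays and 8701, 8320 and 7642 on the vehicle arrays, a log2 difference of -0.13. Its low value was on the aldosterone array of replication 3. Sec13, Sec31a and Sec24c, structural coat subunits, had 0.01, 0.03 and 0.001, each with a 95% interval inside a 1.5-fold change, from -0.43 to 0.43 at the widest. The 10 tested probe sets of the translocon and signal peptidase were 4 higher and 6 lower. Sec61a1, the pore subunit, had 7357, 6581 and 5275 on the aldosterone arrays and 7009, 6686 and 5034 on the vehicle arrays in its first probe set, a log2 difference of 0.04, and its other probe set gave -0.13.

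Sec62, which helps the translocon take up finished proteins, was the third member with a small unadjusted p on the lower side. Its first probe set had 1087, 1060 and 1888 on the aldosterone arrays and 1959, 1996 and 1810 on the vehicle arrays. It was lower by 0.82 and 0.88 on the log2 scale in replications 1 and 2, while replication 3 differed by 0.06 in the other direction. The mean was 1345 ± 471 with aldosterone and 1922 ± 98.2 with vehicle (SD, n = 3 each), a difference of -0.55 (log2, SE 0.238, limma's adjusted p = 0.9995, and 0.998 with the replicate block). Its other probe sets gave -0.22 and 0.13.

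The SNAREs had 22 tested probe sets of 19 genes, 9 higher and 13 lower by sign, and their median log2 difference was -0.06. Stx1a, a plasma membrane SNARE best known from neurons, had 641, 1019 and 696 on the aldosterone arrays and 451, 270 and 742 on the vehicle arrays. The groups overlapped, and the log2 difference was 0.70 with a 95% interval of -0.13 to 1.53. Stx6, of the trans-Golgi network, had 1804, 1257 and 1588 on the aldosterone arrays and 1996, 1678 and 1953 on the vehicle arrays, lower in every replication, with a difference of -0.28 (SE 0.193). Vamp8, an endosomal SNARE, had 14119, 14555 and 15997 on the aldosterone arrays and 15780, 18354 and 14766 on the vehicle arrays in its first probe set, a difference of -0.13.

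The members known to carry aquaporin 2 or the sodium channel to the apical membrane were named from textbook knowledge. Vamp2, the SNARE on aquaporin 2 vesicles, had 3309, 3436 and 4146 on the aldosterone arrays and 2632, 3541 and 4374 on the vehicle arrays, a log2 difference of 0.07 with a 95% interval of -0.39 to 0.52. A second Vamp2 probe set, too dim to be tested, had a log2 difference of -0.10 with mixed directions. Stx4a, the syntaxin on the target membrane, had 2640, 2255 and 2884 on the aldosterone arrays and 3035, 2068 and 3354 on the vehicle arrays, with -0.10 (-0.56 to 0.37). Snap23, their partner, had 1015, 989 and 1301 on the aldosterone arrays and 1077, 698 and 982 on the vehicle arrays, with 0.26 (-0.28 to 0.80). The groups overlapped for all 3 genes. Rab11a, the GTPase of the recycling endosome, had 10223, 11118 and 14099 on the aldosterone arrays and 11006, 12321 and 13914 on the vehicle arrays in its first probe set, with -0.08 (-0.43 to 0.27). Its other probe set gave 0.004 (-0.41 to 0.41), and Rab11b -0.11 (-0.42 to 0.20). Rab25, an epithelial relative of Rab11, had 2151, 2406 and 1175 on the aldosterone arrays and 1830, 1679 and 1152 on the vehicle arrays, with 0.25 (-0.40 to 0.90). All of these intervals lie inside a 2-fold change.

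The Vps proteins, which sort cargo at endosomes and lysosomes, had 18 tested probe sets, 11 higher and 7 lower by sign. Vps35, a core subunit of the retromer that returns receptors from endosomes, had 17432, 17094 and 22268 on the aldosterone arrays and 16952, 19522 and 20245 on the vehicle arrays, a log2 difference of -0.005. A second Vps35 probe set, too dim to be tested, was lower in every replication and without overlap. It had 92.4, 56.7 and 118 on the aldosterone arrays and 208, 131 and 180 on the vehicle arrays. Vps26b, another retromer subunit, had the highest difference of the group, 0.35 with an interval of -0.21 to 0.91, from 1607, 1485 and 1581 on the aldosterone arrays and 819, 1336 and 1604 on the vehicle arrays. The difference came almost wholly from replication 1. Vps52, of the tethering complex GARP, had the lowest of the tested probe sets, -0.23 (-0.65 to 0.18). Vps45, a partner of syntaxins, had 1514, 1571 and 1378 on the aldosterone arrays and 1394, 1557 and 829 on the vehicle arrays in its tested probe set, with 0.28 (SE 0.248). Its other probe set was too dim to be tested and read the other way, with 173, 95.7 and 62.9 on the aldosterone arrays and 372, 223 and 216 on the vehicle arrays.

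The 7 further genes matched by their letters only, and their 6 tested probe sets were 3 higher and 3 lower. Vps72, a subunit of chromatin remodelling complexes, had 11422, 14241 and 8959 on the aldosterone arrays and 11242, 11649 and 11800 on the vehicle arrays, a log2 difference of -0.03. Rab10os and Rab26os, the opposite-strand transcripts of Rab genes, had -0.31 and 0.27.

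Probe sets of 1 gene did not always share a sign. Of 21 genes with more than 1 tested probe set, 7 had the same sign throughout and 14 did not. The share over all genes of the array was not counted, so nothing particular to the members is read from this. Most differences were small: 80.2% of the tested members lay within 0.25 (log2) of 0, against 82.8% of all tested probe sets. Names with a suffix such as _r, _s or _f mark, by the array's naming convention, probe sets with relaxed rules or probes shared with other transcripts. They made up 14 of the 126 tested members (11.1%) and 19% of all tested probe sets, and 3 of the 4 members with an unadjusted p under 0.05: Arcn1, Copb2 and Sec62. The 26 members too dim to be tested were lower in all 3 replications in 8 cases (30.8%) and higher in 2 (7.69%), where all dim probe sets gave 18.3% and 6.86%. Their intensities ran from 7.25 to 904.

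Genes of the same pathways outside the rule were tested in the same fit. Of 140 listed genes, among them adaptors, clathrin, exocyst, sorting nexins and Golgi proteins, 95 had a tested probe set, 121 probe sets in all. By limma 0 passed the adjusted threshold, against 0% of all tested probe sets. At an unadjusted p under 0.05 there were 0 of the 121 higher and 1 lower, where all tested probe sets gave 0.617% and 0.349%. The gene on the lower side was Golga7, a Golgi protein that assists palmitoylation, with a difference of -0.76 (log2, SE 0.269). Ap2b1 and Ap1g1, subunits of clathrin adaptors, had 0.70 and 0.61, Nsf, the ATPase that recycles SNAREs, had 0.32, and Cltb, a clathrin light chain, had -0.30. By sign 69 were higher and 52 lower, with a median of 0.02, against 3721 higher and 3732 lower of all tested probe sets. Between replications, limma's F test called 14 of the 121 (11.6%, against 7.82% of all tested probe sets).

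The arrays of a replication resembled each other, less closely over the members than over all tested probe sets. Trafficking probe sets that differed between the replications, with treatment in the model, numbered 5 of 126 at an adjusted p under 0.05 by limma's F test (3.97%), against 7.82% of all tested probe sets. This count rests on single arrays: it was 1 without the aldosterone array of replication 1 (0.794%, against 1.34% of all tested probe sets) and 0 without its vehicle array (against 0.59%). It was 22 without the aldosterone array of replication 2 (17.5%, against 17.3%) and 14 without its vehicle array (11.1%, against 12.7%). Leaving out the aldosterone or the vehicle array of replication 3 gave 7 each (5.56%, against 7.93% and 7.88%). The count was 0 without an intensity trend in the variance prior (against 0.0268%) and 9 of 96 with the filter at the 60th percentile (9.38%, against 13.9%).

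Rab10 had 2639, 4206 and 5742 on the aldosterone arrays of replications 1, 2 and 3 and 3030, 4561 and 6616 on the vehicle arrays in its first probe set. Both arrays of replication 3 were the highest of their group and both of replication 1 the lowest, 2.16-fold apart on the mean (adjusted p = 0.00434 by limma's F test). Its second probe set had 2603, 4202 and 4385 on the aldosterone arrays and 2214, 2346 and 4929 on the vehicle arrays, in the same order of replications, with an adjusted p of 0.0637 by limma. Vamp3, a SNARE of recycling endosomes, had 2668, 1444 and 3580 on the aldosterone arrays and 3152, 1703 and 3643 on the vehicle arrays. It was lowest in replication 2 on both kinds of array, 2.26-fold below replication 3 (adjusted p = 0.00795 by limma).

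Rab1a had 4360, 3326 and 5679 on the aldosterone arrays and 3676, 3046 and 5492 on the vehicle arrays, 1.74-fold higher in replication 3 than in replication 2 (adjusted p = 0.0183 by limma). A second Rab1a probe set, too dim to be tested, was highest in replication 1 on the mean of both arrays. Stx2, a plasma membrane syntaxin, had 3091, 5715 and 5316 on the aldosterone arrays and 4390, 5709 and 6171 on the vehicle arrays, 1.55-fold apart (adjusted p = 0.0398 by limma). Both arrays of replication 1 were lowest. Rab14, which acts between the Golgi and endosomes, had 1465, 393 and 631 on the aldosterone arrays and 1158, 410 and 591 on the vehicle arrays in its first probe set, highest in replication 1 by 2.99-fold (adjusted p = 0.0298 by limma). Its other tested probe sets did not pass, with adjusted p of 0.0938 and 0.644 by limma, and the first of these, with 10338, 10951 and 14396 on the aldosterone arrays and 11620, 10132 and 13174 on the vehicle arrays, was highest in replication 3.

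**Figure D3:**
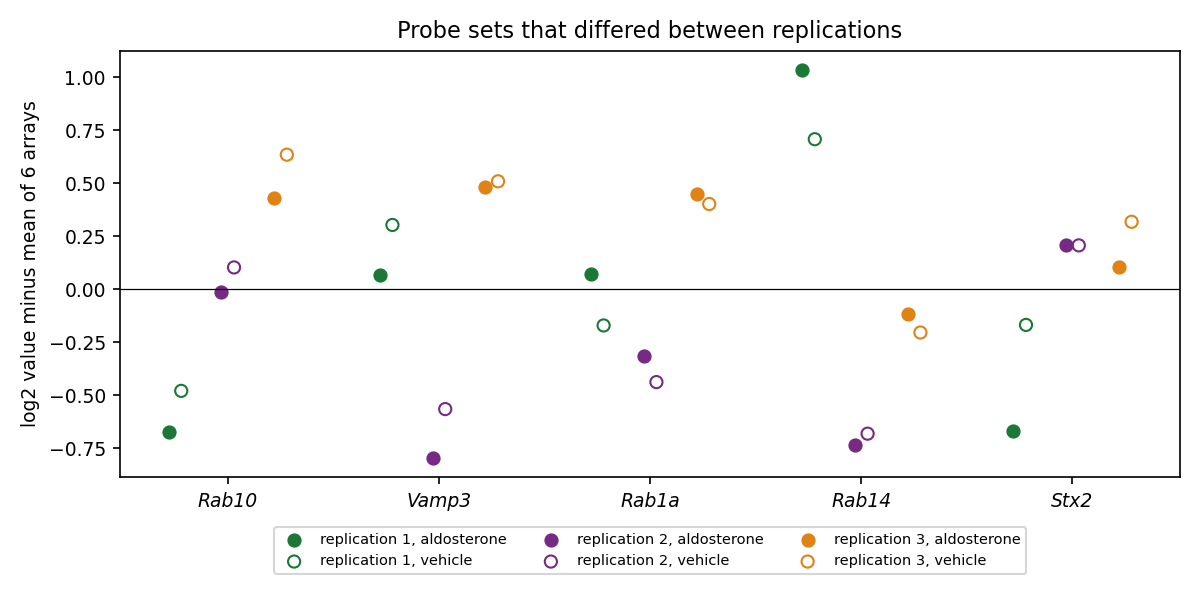
Log2 value minus the mean of the 6 arrays (y axis) for the 5 trafficking probe sets that passed the test between replications, filled points for aldosterone and open points for vehicle, coloured by replication. Both arrays of replication 3 are highest in Rab10, Vamp3 and Rab1a, both of replication 1 are highest in Rab14, and both of replication 1 are lowest in Stx2.

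More of the machinery was highest in replication 3 than of the array as a whole, given here as a description. On the mean of both arrays, 65 of 126 members (51.6%) were highest in replication 3, against 36.2% of all tested probe sets, and after quantile normalization 50.8% against 36.7%. The share was 45.2% on the aldosterone arrays alone, against 34.2% of all tested probe sets, and 42.1% on the vehicle arrays alone, against 35.7%. In both groups at once it was 25.4%, against 20.3%. SNAREs were highest in replication 3 in 15 of 22 probe sets and Rab GTPases in 20 of 36. Of the 8 COPII coat probe sets, 5 were highest in replication 2 on the mean of both arrays, where all tested probe sets gave 33.2%, but on the vehicle arrays alone 2 were. The rescaled array is 1 of the 2 arrays of replication 3, and its part in these shares on the mean was not tested.

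**Figure D4:**
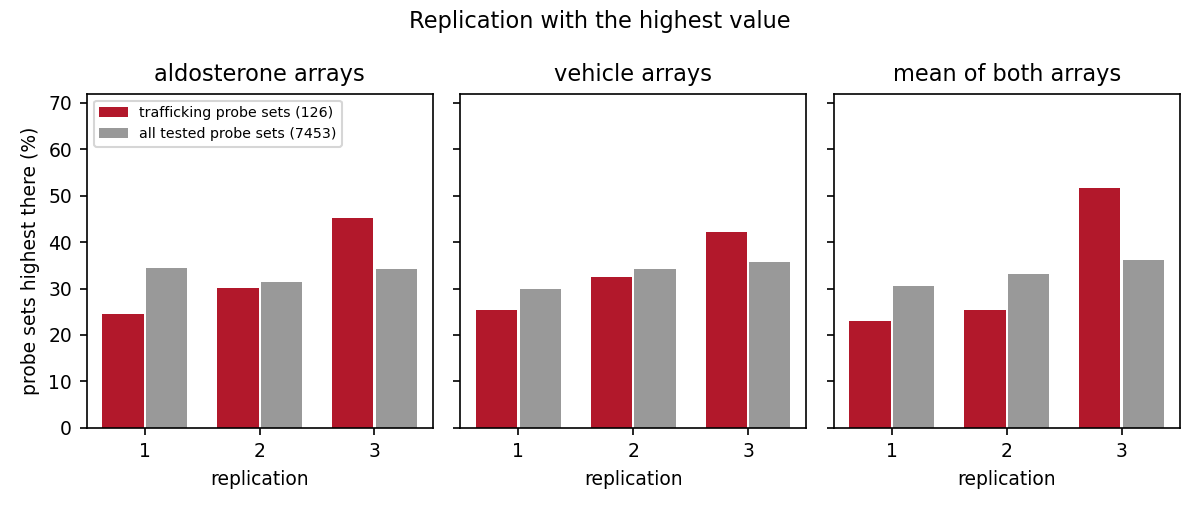
Percent of tested probe sets (y axes, from 0) that were highest in replication 1, 2 or 3 (x axes), for the 126 trafficking members and all 7453 tested probe sets, on the aldosterone arrays, the vehicle arrays and the mean of both. In replication 3 the members stand at 45.2%, 42.1% and 51.6%, and all tested probe sets at 34.2%, 35.7% and 36.2%.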

How the data were processed

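Per the labels, total RNA of mIMCD3 cells was made into cRNA and hybridised, 1 array per treatment and replication. The authors deposited linear intensities per probe set; for software and normalization, details were not given in the sources used here. Probe sets were named through the platform annotation: 10833 had 1 symbol, 396 several and 1193 none, and RefSeq (GRCm38.p6) changed 0 member symbols. Arrays were scaled to a 2% trimmed mean of 2090, because these means lay over 10% apart, and converted to log2(intensity + 53), 53 being the 10th percentile; fold changes on this scale understate those of dim genes. On the rescaled array, 1 decimal is a step of 2.42. Precision is limited by the number of arrays.

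Treatment was tested with limma 3.58.1 (R 4.3.3; lmFit, eBayes with trend, two-sided, Benjamini-Hochberg over all tested probe sets), and replications with its F test; the code was tested on simulated data. The members, lists and motifs were chosen with earlier results of these data known. Values are printed for members with an unadjusted p under 0.05, the 4 largest differences each way among those going one way in all replications, the 8 smallest p between replications, the highest mean intensity of each role, and Arcn1 and Rabggtb; the members of aquaporin 2 traffic and further ones were added. Same-numbered arrays deviated together (r = 0.377, 0.387 and 0.471 over all tested probe sets), so the numbers pair the arrays. Over the tested members r was 0.312, 0.146 and 0.334, weakest in replication 2. Alternatives were the replicate block, quantile normalization, a pseudocount of 16, no filter or one at the 60th percentile, no trend, and leaving out arrays or replications. Protein sequences were not used here.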

Additional observations from a re-analysis of the deposited data

How the results depend on the processing

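Over all tested probe sets the count past the adjusted threshold for aldosterone was 0 and stayed 0 with the replicate block, which raised the count at an unadjusted p under 0.05 to 250 from 72 and changed no adjusted call. Leaving out single arrays gave 0 to 1, and the block without replication 1, 2 or 3, chosen after seeing the data, gave 0, 20 and 9. For the members the count was 0 except for 1, Copb2, with the block and without replication 3. The test between replications gave 583 over all tested probe sets, 2 without the intensity trend and 44 to 1292 without single arrays. For the members it gave 5, then 0 without the trend, 9 with the filter at the 60th percentile and 0 to 22 without single arrays. The cause was not tested.

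Directions under the alternatives were followed for only a part of the tested members. Members not listed below, such as Copb1, Arf4 and Arf6, were not all followed, so their absence does not mean a kept sign. Under quantile normalization Rab11a in its second probe set turned to -0.01 and Vps35 to 0.01. With arrays or replications left out, log2 differences that changed sign ran as follows: Copb2 (second probe set) -0.26 to 0.18, Copg1 (first) -0.04 to 0.08, Sec16a -0.29 to 0.14, Sec61a1 (first) -0.11 to 0.17, Sec61a1 (second) -0.30 to 0.01, Sec62 (last) -0.01 to 0.33, Rab10 (first) -0.45 to 0.12, Rab11a (first) -0.21 to 0.02, Rab11a (second) -0.16 to 0.14, Rab14 (first) -0.37 to 0.52, Rab14 (second) -0.12 to 0.12, Rab18 -0.11 to 0.11, Rab1a -0.05 to 0.37, Rab2a -0.26 to 0.05, Rab3ip -0.03 to 0.17, Stx2 -0.40 to 0.04, Stx4a -0.30 to 0.04, Vamp2 -0.12 to 0.24, Vamp3 -0.49 to 0.19, Vamp8 (second) -0.28 to 0.17, Vps35 -0.13 to 0.09, Vps72 -0.19 to 0.16. Arcn1, Rabggtb, Copb2 in its first probe set, Sec62 in its first probe set, Rab3a and Rab8b kept their direction under the alternatives run for them. These were 15 each, or 14 for Rab3a, Rab8b and the second probe set of Arcn1, which the filter at the 60th percentile leaves out. The block, the filters and the trend leave a log2 difference as it is, so they could not turn a direction. For Rabggtb, Rab8b and the first probe set of Arcn1 the groups did not overlap. Leaving out arrays could not turn their direction either, so these counts are no measure of stability. With 3 arrays a group, the median standard error of a member's log2 difference was 0.191 on treatment alone and 0.129 with the replicate block. The standard errors printed with the differences are those on treatment alone unless the block is named. Low intensities on the rescaled array are coarse.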
